A study of Mus musculus with 7 samples.

Results

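Osteoclasts are the bone-resorbing cells of the skeleton, and the 10 genes described here encode proteins by which they form, fuse and dissolve bone. They were taken from a fixed list of symbols and matched by Ensembl identifier among 56854 genes that the files of all 7 libraries list. Of the 10, 9 had reads and passed the filter on low counts, and 1, Acp5, was listed at 0 throughout. The study sequenced polyadenylated RNA of whole shoulder joints 2 weeks after surgical repair of the left supraspinatus, a tendon of the rotator cuff. Joints came from wild-type mice (n = 3) and from mice lacking tenascin C (Tnc-/-, n = 4), a matrix glycoprotein of healing tendon. Every animal had the repair, so no uninjured joint enters any comparison. Strain, age and the Tnc allele are not given in the sources used here. Nothing in the labels says how animals were housed or processed together, so p-values measure the spread between these libraries.

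Osteoclasts arise from monocyte precursors when RANK, the receptor encoded by Tnfrsf11a, meets its ligand RANKL on osteoblast-lineage and stromal cells, while osteoprotegerin soaks up the ligand as a decoy. RANK signalling, helped by ITAM-coupled receptors such as OSCAR, raises the transcription factor NFATc1, which switches on genes for cell fusion and resorption. The multinucleated cell then acidifies a sealed space with a vacuolar proton pump and digests collagen with cathepsin K. In a repaired rotator cuff the tendon is fixed to the humeral head, where bone is remodelled during healing. The joints were sampled whole, so fewer osteoclasts and less RNA per osteoclast cannot be told apart.

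Several facts of the whole series bear on these genes. Libraries held 13.5 to 28.2 M gene counts. Tnc, the deleted gene, was at 437, 292 and 327 CPM (counts scaled to library size with TMM factors) in the wild-type libraries and at 33.4 to 55.0 CPM in Tnc-/-, a log2 fold change of -3.08 (standard error 0.21, adjusted p = 2.8e-04 in edgeR). The identifier lists of the 2 genotypes differ, so genotype and counting run cannot be told apart. Wild-type libraries 2 and 3 stood apart. Their 2025 chemoreceptor genes (smell and pheromone receptors) summed to 1399 and 982 CPM, against 89.1 CPM in wild-type library 1 and 36.5 to 43.9 CPM in Tnc-/-. Values are therefore also given without these 2 libraries, which leaves a single wild-type library whose spread is assumed to be that of the Tnc-/- group. Another fit takes the chemoreceptor level as a covariate. That level was higher in every wild-type library than in any Tnc-/- library, so covariate and genotype are largely confounded in it.

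To show the sequence in front of members with different outcomes in this comparison, 3 promoter windows from RefSeq (build GRCm38.p6) are printed, each 250 bases before to 50 after the start. Ctsk is the most abundant member and overlapped between the genotypes, Tcirg1 is the resorption gene that was higher in Tnc-/-, and Oscar is a receptor gene that was lower in every Tnc-/- library. Capitals mark GGAAA or its complement TTTCC, the core that NFAT proteins bind.
Ctsk promoter (chr3:95498960-95499259, plus strand): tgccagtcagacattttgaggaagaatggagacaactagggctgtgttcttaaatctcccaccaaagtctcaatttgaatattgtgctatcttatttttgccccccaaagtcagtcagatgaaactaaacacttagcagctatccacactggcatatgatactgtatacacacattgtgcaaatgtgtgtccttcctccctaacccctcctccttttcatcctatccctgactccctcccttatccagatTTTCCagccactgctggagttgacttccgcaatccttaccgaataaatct
Tcirg1 promoter (chr19:3907084-3907383, minus strand): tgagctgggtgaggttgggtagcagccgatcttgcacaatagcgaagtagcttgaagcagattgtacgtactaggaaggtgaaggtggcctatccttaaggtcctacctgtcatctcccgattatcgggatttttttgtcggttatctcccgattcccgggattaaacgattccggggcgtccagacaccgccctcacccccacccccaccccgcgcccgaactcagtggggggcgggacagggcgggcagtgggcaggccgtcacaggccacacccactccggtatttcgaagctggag
Oscar promoter (chr7:3616108-3616407, minus strand): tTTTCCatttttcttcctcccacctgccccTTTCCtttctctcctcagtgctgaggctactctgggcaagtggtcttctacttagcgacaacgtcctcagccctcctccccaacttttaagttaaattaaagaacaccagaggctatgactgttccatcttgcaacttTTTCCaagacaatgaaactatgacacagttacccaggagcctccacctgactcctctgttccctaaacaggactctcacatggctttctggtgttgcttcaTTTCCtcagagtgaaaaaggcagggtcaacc
The Oscar window holds 4 such cores and the Ctsk window 1, while the printed Tcirg1 window, at its most upstream start, holds 0. Of the other 2 Tcirg1 windows, 1 holds 2 cores and 1 holds 0, so the count depends on the start chosen. Windows were searched for 6 of the 10 genes, 11 windows in all, of which 7 held the core, against 61.3% of 32851 windows of the same length. The chromosome that holds Nfatc1 was left out of the search of members but not of the 32851 windows. The absence of a window for Nfatc1 is therefore not a finding about that gene. The other motifs searched on both strands, TGANTCA of AP-1, GAGGAAGT of PU.1 and CACGTG of MITF, matched in 0 of the 11 windows, and they occur in 7.81, 3.2 and 7.15% of all windows. A match is a run of letters and no evidence of binding, and 0 matches say only that these letters are not in the window.

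Acp5 (ENSMUSG00000001348) encodes tartrate-resistant acid phosphatase, the enzyme behind the standard stain for osteoclasts. The files list it at 0 counts in all 7 libraries, and so the marker could not be compared. Against the TMM-scaled library sizes, a value of 0 would allow at most 0.111 to 0.199 CPM per library for countable reads. In GENCODE M21, 100% of the exon bases of Acp5 lie within the span of 6530413G14Rik, a transcript on the opposite strand, which itself had at most 5 counts in a library. Such genes were rarely counted. Of 1261 protein-coding genes whose exons lie wholly inside other listed gene spans, 1135 (90.0%) were at 0 in every library, against 14.5% of 14289 whose exons lie outside other spans. Each of the 6 genes at 0 throughout among the 178 on the lists used here had at least 99.1% of its exon bases inside another gene span, among them Itgam of macrophages, Col10a1 of hypertrophic cartilage and Scx of tendon. The Tnc-/- files set aside 3267030 to 4807488 reads as ambiguous between genes, 13.97 to 14.31% of the reads on genes, ambiguous or on no gene. Whether reads of Acp5 were among them was not tested, and the 0 is not read here as absence of the enzyme. The exons of the other 9 genes lie outside other gene spans.

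Per kb of exon, the 9 counted genes spanned a wide range. Ctsk, which encodes the collagen-degrading protease cathepsin K, led with 422 ± 67.9 CPM per kb (SD over all 7 libraries). Tcirg1, the osteoclast isoform of the membrane subunit a of the proton pump, followed with 30.1 ± 6.78. Atp6v0d2, subunit d2 of the same pump, was at 14.9 ± 4.50 CPM per kb and Nfatc1 at 13.2 ± 2.59, which differ by less than their spread. Next came Oscar at 4.29 ± 1.10 CPM per kb and Tnfrsf11a at 3.88 ± 2.63, again within their spread. The fusion genes Dcstamp and Ocstamp were at 2.98 ± 0.576 and 2.38 ± 0.408 CPM per kb, a difference slightly larger than either SD. Calcr, the calcitonin receptor through which that hormone restrains resorption, was lowest at 0.708 ± 0.655 CPM per kb. This order, over all libraries, was not that of each genotype. Tnfrsf11a stood above Oscar in wild type (6.14 against 5.23 CPM per kb) and below Oscar and Dcstamp in Tnc-/- (2.19 against 3.59 and 2.55). Nfatc1 stood below Atp6v0d2 in wild type (10.9 against 16.4 CPM per kb) and above it in Tnc-/- (14.9 against 13.8). Ctsk is also made by fibroblasts, Nfatc1 and Tcirg1 by lymphocytes and Calcr by muscle stem cells, so in a whole joint these levels are not those of osteoclasts alone.

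The genotype comparison gave no common direction for these genes. In edgeR's quasi-likelihood test over 17791 genes, 4 of the 9 passed an adjusted p of 0.05: Tcirg1 and Nfatc1 rose in Tnc-/-, Tnfrsf11a and Calcr fell. Of all genes tested 29% passed, 10.3% higher and 18.7% lower, so nothing particular to the members is read from their count. DESeq2 with the same adjustment also called 4 of the 9, and limma voom called 0, with 4 at an unadjusted p under 0.05. Every Tnc-/- library lay above every wild-type library for 2 of the 9 (background 17.7%) and below for 5 (background 17.4%), 7 of 9 in either direction against 35.1% of all genes tested. The groups overlapped for Ctsk and Atp6v0d2. The median log2 fold change of the 9 was -0.40, against -9.0e-04 for all genes tested.

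**Figure D1:**
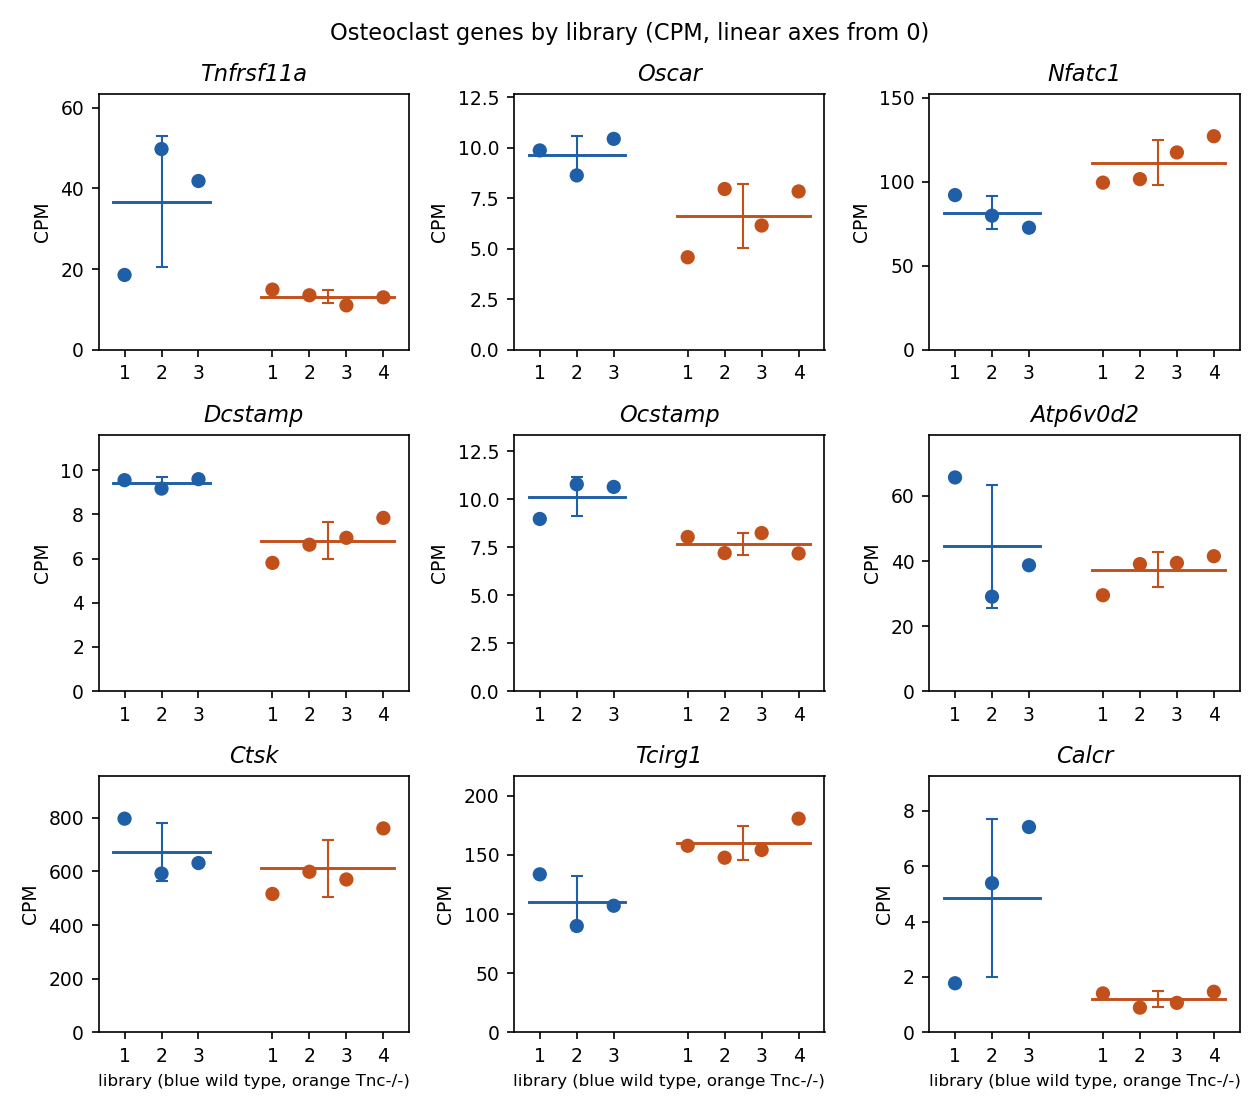
Level of the 9 counted osteoclast genes in each library, in CPM on linear axes from 0. Points are libraries numbered within each genotype (blue wild type, orange Tnc-/-), horizontal lines are group means and bars are SD (n = 3 and 4). Tnfrsf11a and Calcr are high only in wild-type libraries 2 and 3, whereas Dcstamp, Ocstamp and Oscar are lower in every Tnc-/- library by a smaller step.

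Tnfrsf11a (ENSMUSG00000026321), the receptor that starts osteoclast formation, measured 18.6, 49.8 and 41.9 CPM in the 3 wild-type libraries, in numerical order. In Tnc-/- libraries 1 to 4 it was at 14.9, 13.5, 11.0 and 13.0 CPM. The level fell from 36.7 ± 16.2 (SD, n = 3) to 13.1 ± 1.62 CPM (SD, n = 4), a log2 fold change of -1.48 (standard error 0.31, adjusted p = 0.0104 in edgeR). Wild-type libraries 2 and 3 lay far above library 1, which was itself above every Tnc-/- library. Wild-type library 1 alone gave a log2 fold change of -0.50 (standard error 0.23, adjusted p = 0.198 in edgeR). With the chemoreceptor level as a covariate the change was -0.07 (standard error 0.27, adjusted p = 0.921 in edgeR). The call held when any single library was left out, with log2 fold changes from -1.71 to -1.20.

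Calcr (ENSMUSG00000023964) had 33, 81 and 122 counts in wild-type libraries 1 to 3, or 1.77, 5.38 and 7.41 CPM. The Tnc-/- libraries had 38, 16, 19 and 28 counts, or 1.41, 0.891, 1.06 and 1.46 CPM. Again wild-type library 1 sat close to the Tnc-/- values and the other 2 well above them. The log2 fold change was -2.0 (standard error 0.57, adjusted p = 0.0309 in edgeR), and -0.55 (SE 0.54; adjusted p = 0.564) against wild-type library 1 alone. The call was lost without wild-type library 2 or 3 or any 1 of the Tnc-/- libraries, with adjusted p up to 0.14 in edgeR and log2 fold changes from -2.30 to -1.55 over the 7 fits. Since muscle stem cells also carry this receptor, the summed level of 7 satellite cell markers was set beside it. That sum was 89.4 to 97.8 CPM in wild type and 87.0 to 105 CPM in Tnc-/-, overlapping between the genotypes, with 1 marker higher and 1 lower past the threshold.

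Gene span was examined beside both falls, because reads on chemoreceptor genes were high in the same 2 wild-type libraries. Tnfrsf11a spans 67.3 kb and Calcr 79.0 kb in GENCODE M21. The amounts below assume that reads anywhere in a gene span were counted. The sources used here do not state this, and the amounts would differ if only exons were counted. At the read density of the chemoreceptor genes, the Calcr span would hold 7.43 and 5.21 CPM in wild-type libraries 2 and 3, against the observed 5.38 and 7.41 CPM. In the other 5 libraries it would hold 0.195 to 0.47 CPM. The Tnfrsf11a span would hold 6.32 and 4.44 CPM in wild-type libraries 2 and 3, well under the observed 49.8 and 41.9 CPM. With these amounts taken away Tnfrsf11a stayed lower in every Tnc-/- library, whereas the groups of Calcr overlapped. Among all 4872 tested genes spanning over 30 to 100 kb, 21.8% fell and 8.58% rose in Tnc-/-, with a median log2 fold change of -0.15. In the 10011 genes spanning up to 30 kb, which include Oscar, Dcstamp, Ocstamp, Ctsk and Tcirg1, 8.49% fell and 13% rose. The part of this background in either fall was not tested beyond these values.

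**Figure D2:**
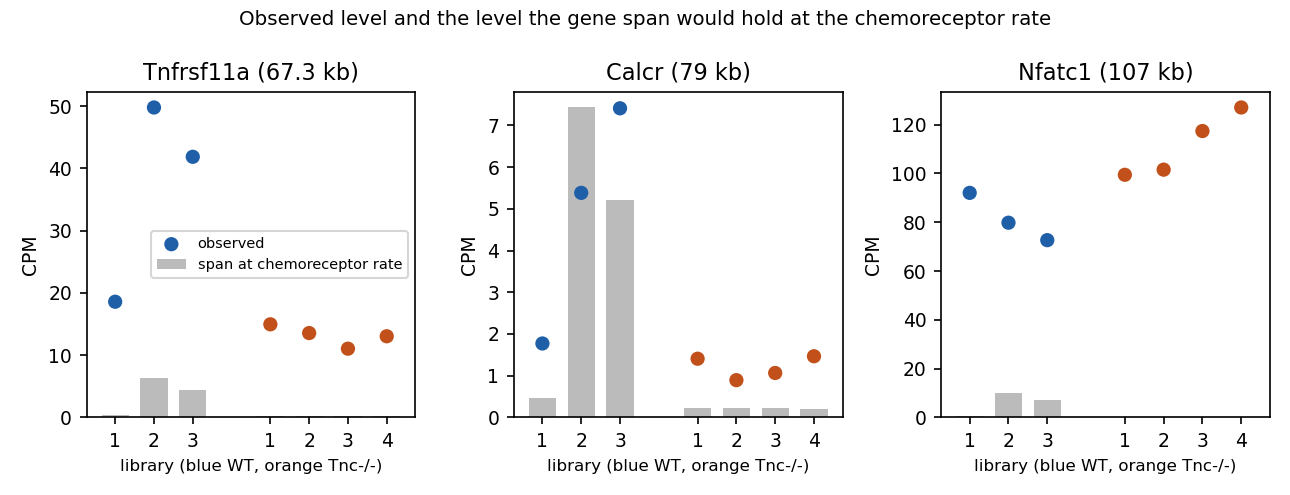
Observed level (points, CPM) of Tnfrsf11a, Calcr and Nfatc1 in each library, with grey bars for the level their gene span would hold at the read density of the chemoreceptor genes (blue wild type, orange Tnc-/-). For Calcr the bars reach 7.43 and 5.21 CPM in wild-type libraries 2 and 3, above the observed 5.38 CPM in library 2 and below the observed 7.41 CPM in library 3, while for Tnfrsf11a and Nfatc1 they stay far below them.

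Oscar (ENSMUSG00000054594), an immunoglobulin-like receptor that costimulates osteoclast precursors through the adaptor FcR gamma, measured 9.88, 8.64 and 10.4 CPM in wild type. The Tnc-/- libraries were at 4.59, 7.97, 6.16 and 7.85 CPM, all below wild type. The log2 fold change of -0.54 (SE 0.32) did not pass (edgeR, adjusted p = 0.226). Here wild-type library 1 lay with the others of its group, and on its own it gave -0.58 (standard error 0.33, adjusted p = 0.291 in edgeR).

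Of the 3 fusion genes, Dcstamp, Ocstamp and Atp6v0d2, 0 passed in edgeR with all libraries, 0 were at an unadjusted p under 0.05, and DESeq2 and limma voom called 0. The groups did not overlap for Dcstamp and Ocstamp. Dcstamp (ENSMUSG00000022303) encodes DC-STAMP, a transmembrane protein needed for precursors to fuse. It was at 9.55, 9.17 and 9.60 CPM in wild type and at 5.81, 6.63, 6.94 and 7.85 CPM in Tnc-/-. The wild-type libraries, with an SD of 0.235 CPM (n = 3), lay above all of Tnc-/-, yet the log2 fold change of -0.47 (SE 0.28) did not pass (edgeR, adjusted p = 0.23). These levels rest on 119 to 178 counts per library. Without the amount its span would hold at the chemoreceptor density, the groups of Dcstamp overlapped, with 7.76 CPM in wild-type library 2 and 7.81 CPM in Tnc-/- library 4.

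Ocstamp (ENSMUSG00000027670), whose protein OC-STAMP acts with DC-STAMP in fusion, was at 8.96, 10.8 and 10.6 CPM in wild type. In Tnc-/- it was at 8.03, 7.19, 8.23 and 7.17 CPM, again without overlap. Its log2 fold change was -0.40 (standard error 0.26, adjusted p = 0.275 in edgeR). The change was nearer to 0 without wild-type libraries 2 and 3, at -0.23. With the chemoreceptor level as a covariate it was -0.14 (standard error 0.38, adjusted p = 0.879 in edgeR). The fold changes of Oscar, Dcstamp and Ocstamp were negative in all 17 alternative fits, and none of the 3 passed the threshold in any of them, with lowest adjusted p in edgeR of 0.0839, 0.076 and 0.0986, each with library totals as the scaling.

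Atp6v0d2 (ENSMUSG00000028238) encodes a proton pump subunit that is also needed for fusion. It was at 65.7 CPM in wild-type library 1, the highest of all, and at 29.0 and 38.7 CPM in libraries 2 and 3. The Tnc-/- values of 29.5, 39.1, 39.4 and 41.5 CPM lay among those of wild-type libraries 2 and 3 or just above them. The log2 fold change was -0.25 (standard error 0.26, adjusted p = 0.502 in edgeR). It depended on wild-type library 1: without that library it was 0.23 (SE 0.18; adjusted p = 0.284), and with it as the only wild-type library it was -0.82 (SE 0.19; adjusted p = 0.0349). This was the 1 member that passed in that smaller fit, in which 4.45% of 18530 genes passed, 2.53% higher and 1.92% lower. With the chemoreceptor covariate it passed in edgeR, at -1.17 (standard error 0.24, adjusted p = 0.0347). Wild-type library 1 is the wild-type library nearest to Tnc-/- in that covariate, so this fit is not independent of the smaller one.

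**Figure D3:**
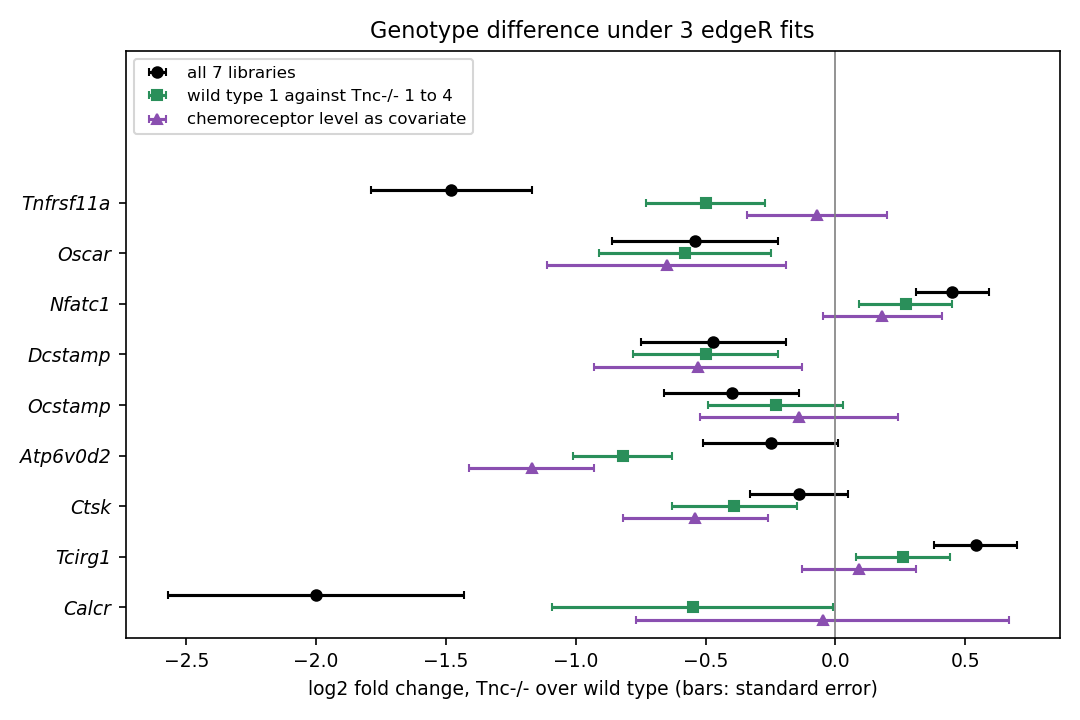
Log2 fold change of Tnc-/- over wild type for the 9 counted genes, with bars for the standard error, in 3 edgeR fits: all 7 libraries (black circles), wild-type library 1 against the 4 Tnc-/- libraries (green squares) and all libraries with the chemoreceptor level as a covariate (purple triangles). Tnfrsf11a moves from -1.48 to -0.50 and -0.07 and Calcr from -2.0 to -0.55 and -0.05, while Atp6v0d2 and Ctsk move away from 0. Tcirg1 moves from 0.54 to 0.26 and 0.09 and Nfatc1 from 0.45 to 0.27 and 0.18. Ocstamp moves from -0.40 to -0.23 and -0.14, whereas Oscar and Dcstamp stay between -0.47 and -0.65.

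Ctsk (ENSMUSG00000028111), the main collagenase of the resorption space, had 8909 to 14841 counts per library, the deepest coverage of any member. Its level was 797, 592 and 631 CPM in wild type and 516, 599, 570 and 760 CPM in Tnc-/-. The groups overlapped, with means of 673 ± 109 (SD, n = 3) and 611 ± 105 CPM (SD, n = 4). The log2 fold change was -0.14 (standard error 0.19, adjusted p = 0.612 in edgeR), positive without wild-type library 1 at 0.09. It was -0.39 without wild-type libraries 2 and 3 (adjusted p = 0.332 in edgeR) and -0.54 with the chemoreceptor covariate (adjusted p = 0.326). Matrix metalloproteinase Mmp9, the other abundant protease of osteoclasts and of neutrophils, was at 386 to 561 CPM in wild type and 381 to 486 CPM in Tnc-/- (log2 fold change -0.03, SE 0.18; edgeR, adjusted p = 0.917).

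Tcirg1 (ENSMUSG00000001750) rose where Ctsk did not. It was at 134, 89.8 and 107 CPM in wild type and at 158, 148, 154 and 181 CPM in Tnc-/-, with no overlap. The mean went from 110 ± 22.0 (SD, n = 3) to 160 ± 14.3 CPM (SD, n = 4), a log2 fold change of 0.54 (standard error 0.16, adjusted p = 0.0361 in edgeR). Nfatc1 (ENSMUSG00000033016), the master transcription factor of the lineage, was at 92.0, 79.8 and 72.7 CPM in wild type and at 99.4, 102, 117 and 127 CPM in Tnc-/-. Its log2 fold change was 0.45 (standard error 0.14, adjusted p = 0.0439 in edgeR), while of the 1999 tested genes spanning over 100 to 300 kb, as Nfatc1 does with 107 kb, 4.15% rose and 44.7% fell.

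Both rises were smaller against wild-type library 1, at 0.26 for Tcirg1 (standard error 0.18, adjusted p = 0.397 in edgeR) and 0.27 for Nfatc1 (SE 0.18; adjusted p = 0.384). With the chemoreceptor level as a covariate neither passed, at 0.09 for Tcirg1 (adjusted p = 0.874 in edgeR) and 0.18 for Nfatc1 (adjusted p = 0.734). Each call was lost without wild-type library 2 or 3 or any 1 Tnc-/- library, with log2 fold changes from 0.41 to 0.79 for Tcirg1 and 0.38 to 0.64 for Nfatc1 and adjusted p (edgeR) up to 0.118 and 0.152. Scaling by library totals, which shifts the median of all genes to -0.24, left 0.31 for Tcirg1 and 0.21 for Nfatc1, past the threshold for neither. Marker sums of other cell types are given beside these rises, and their counts stand against 10.3% of all genes tested passing higher and 18.7% lower. The 10 marrow granulocyte markers summed to 5997, 2873 and 3111 CPM in wild type and to 6611 to 11239 CPM in Tnc-/-, 6 of 10 passing higher. The 14 macrophage and monocyte markers, of which Itgam was at 0, summed to 3478, 2028 and 1826 CPM in wild type and to 2884 to 3417 CPM in Tnc-/-, overlapping between the genotypes, with 2 of 13 tested passing higher (Cd14 and Ly6c2). Erythroid markers summed to 4783 to 9109 CPM in wild type and to 13054 to 25536 CPM in Tnc-/-, 4 of 7 tested passing higher. The 10 skeletal muscle fibre markers summed to 25659 to 34904 CPM in wild type and to 37080 to 55822 CPM in Tnc-/-, 2 passing higher. The 8 T cell markers summed to 30.9, 61.5 and 55.9 CPM in wild type and to 28.7 to 39.1 CPM in Tnc-/-, with 2 passing lower. Without wild-type libraries 2 and 3, 0 markers of these 5 lists passed in edgeR, and the median log2 fold change was 0.481 for the granulocyte, -0.025 for the macrophage, 0.697 for the erythroid, 0.377 for the muscle and 0.561 for the T cell markers. The part of other cells in the rises was not tested.

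Ratios within a library need no scaling, and those to Ctsk were added after the values were seen. Tcirg1 per Ctsk was 0.168, 0.152 and 0.169 in wild type and 0.306, 0.247, 0.27 and 0.237 in Tnc-/-. Nfatc1 per Ctsk was 0.116, 0.135 and 0.115 in wild type and 0.193, 0.17, 0.206 and 0.167 in Tnc-/-. Both ratios were higher in every Tnc-/- library, wild-type library 1 included in the comparison and close to the other 2. Among all other tested genes the ratio to Ctsk was higher in every Tnc-/- library for 22.5% and lower for 9.92%. The ratios of Atp6v0d2, Dcstamp, Ocstamp and Oscar to Ctsk overlapped between the genotypes, as did Ocstamp per Dcstamp, at 0.938 to 1.17 in wild type and 0.913 to 1.38 in Tnc-/-.

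**Figure D4:**
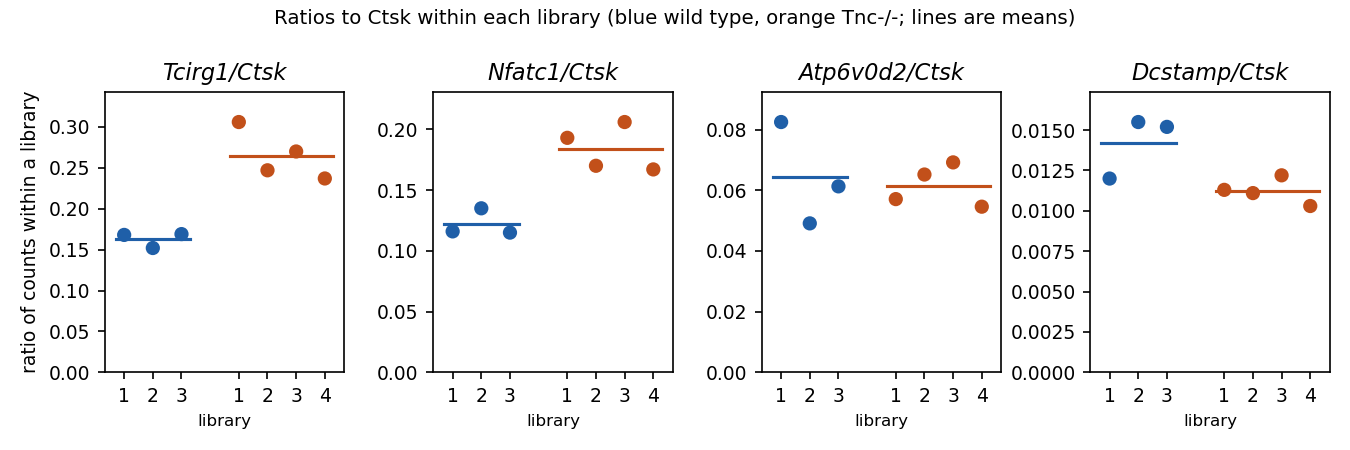
Counts of 4 genes divided by those of Ctsk in the same library, on linear axes from 0 (blue wild type, orange Tnc-/-, lines are means). The ratio of Tcirg1 is 0.152 to 0.169 in wild type and 0.237 to 0.306 in Tnc-/-, that of Nfatc1 separates in the same way, and those of Atp6v0d2 and Dcstamp overlap.

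Within Tnc-/-, library 1 had the lowest level of Oscar, Nfatc1, Dcstamp, Atp6v0d2 and Ctsk, but the highest of Tnfrsf11a. The same library had the highest sum of erythroid markers, 25536 CPM against 13054 to 15137 CPM in the other Tnc-/- libraries, and of granulocyte markers. Library 4 had the highest level of Nfatc1, Dcstamp, Atp6v0d2, Ctsk, Tcirg1 and Calcr in Tnc-/-, but the lowest of Ocstamp. Its cartilage markers also summed highest, at 1910 CPM against 554 to 1282 CPM, with Col10a1 at 0 in all. Tendon and synovial fibroblast markers, of cells that also make Ctsk, summed to 35197, 23329 and 28744 CPM in wild type and to 24203, 26560, 28009 and 41610 CPM in Tnc-/-. Like Ctsk, this sum was lowest in library 1 and highest in library 4 of Tnc-/-, and highest in library 1 and lowest in library 2 of wild type. The part of fibroblasts in the level of Ctsk was not tested. The 10 osteoblast and osteocyte markers summed to 1149 to 1599 CPM in wild type and 1288 to 1579 CPM in Tnc-/-, overlapping between the genotypes.

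Other genes of osteoclast formation and function are given by lists. RANKL (Tnfsf11), the ligand that starts the pathway, was at 8.91, 5.45 and 7.47 CPM in wild type and 4.85, 5.46, 7.67 and 7.64 CPM in Tnc-/- (log2 fold change -0.19, SE 0.35; edgeR, adjusted p = 0.721). Its decoy osteoprotegerin (Tnfrsf11b) was at 22.6, 17.9 and 33.4 CPM in wild type and 17.3, 13.98, 18.7 and 14.8 CPM in Tnc-/- (-0.60, SE 0.24; adjusted p = 0.0868). The ratio of ligand to decoy overlapped, at 0.224 to 0.394 in wild type and 0.279 to 0.518 in Tnc-/-. Of the 22 genes of RANK signalling, all tested, 0 passed in edgeR in either direction, with 7 at an unadjusted p under 0.05, while 29% of all genes tested passed. DESeq2 called 2 of them and limma voom 0. Their median log2 fold change was 0.24. It was 0.072 without wild-type libraries 2 and 3, beside 0.027 for all genes tested. Without wild-type libraries 2 and 3, 1 passed (4.45% of all genes did), Map3k14, the kinase of the noncanonical arm, named here after its values were seen.

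Of 14 tested genes of ITAM costimulation and calcium signalling, 3 rose and 3 fell, against 10.3% and 18.7% of all genes tested. Syk, the kinase recruited by ITAM adaptors, rose from 71.2 ± 28.9 (SD, n = 3) to 159 ± 34.1 CPM (SD, n = 4), with a log2 fold change of 1.15 (standard error 0.28, adjusted p = 0.0184 in edgeR). The calcium-dependent kinase gene Camk4 fell by 3.04 (SE 0.57; adjusted p = 0.00863) and Sirpb1a, a DAP12-coupled receptor gene, fell by 2.51 (SE 0.60; adjusted p = 0.017), both on the log2 scale. Camk4 spans 256 kb and was at 8.59 CPM in wild-type library 1 against 60.3 and 50.7 CPM in libraries 2 and 3. Sirpb1a was at 2.63 CPM in wild-type library 1, 10.3 and 12.5 CPM in libraries 2 and 3 and 1.003 to 2.26 CPM in Tnc-/-. Without those 2 libraries 0 genes of this list passed in edgeR, and the log2 fold change was 0.63 for Syk (adjusted p = 0.14), -0.84 for Camk4 (adjusted p = 0.164) and -0.81 for Sirpb1a (adjusted p = 0.366).

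Among 12 transcription factors and repressors of the lineage, 4 rose and 1 fell, against 10.3% and 18.7% of all genes tested. Tfeb, a regulator of lysosome genes, rose from 43.6 ± 7.52 (SD, n = 3) to 88.5 ± 4.21 CPM (SD, n = 4), with a log2 fold change of 1.02 (standard error 0.14, adjusted p = 0.0067 in edgeR). It was also the 1 gene of the list that passed against wild-type library 1 alone, at 0.76 (adjusted p = 0.0281). Spi1, which encodes the myeloid factor PU.1, rose by 0.79 (SE 0.22; adjusted p = 0.0283), and Prdm1, whose product Blimp1 represses inhibitors of osteoclast formation, fell by 1.96 (SE 0.40; adjusted p = 0.00997). Prdm1 was at 9.12 CPM in wild-type library 1 and at 29.3 and 29.5 CPM in libraries 2 and 3, and against library 1 its change was -0.66 (adjusted p = 0.195) and that of Spi1 was 0.31 (adjusted p = 0.294).

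Attachment and sealing zone genes rose in 6 of 14 cases and fell in 1, against 10.3% and 18.7% of all genes tested. Without wild-type libraries 2 and 3, 0 were called higher and 1 lower. Src, the kinase without which the ruffled border does not form, rose from 34.05 ± 4.47 (SD, n = 3) to 54.5 ± 6.14 CPM (SD, n = 4), with a log2 fold change of 0.68 (standard error 0.15, adjusted p = 0.0126 in edgeR). Against wild-type library 1 alone its change was 0.54 (adjusted p = 0.104). Sh3pxd2a, a podosome scaffold, rose by 0.63 (SE 0.16; adjusted p = 0.0201), and by the smaller fit its change was 0.45 (adjusted p = 0.212). Itgav, the alpha chain of the osteoclast vitronectin receptor, fell from 95.1 ± 11.8 to 62.0 ± 2.01 CPM (-0.62, SE 0.12; adjusted p = 0.00929), and this held against wild-type library 1, at -0.72 (adjusted p = 0.0223). Itgb3, the beta chain of the same receptor, named after its values were seen, went the other way, from 103 ± 35.2 (SD, n = 3) to 189 ± 35.3 CPM (SD, n = 4), a log2 fold change of 0.87 (standard error 0.25, adjusted p = 0.0315 in edgeR). Its wild-type library 1, at 141 CPM, lay just below the Tnc-/- range of 145 to 229 CPM, and wild-type libraries 2 and 3 were at 70.8 and 98.8 CPM.

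Of 24 genes of acid secretion, proteolysis and the lysosomal side of the ruffled border, 6 rose and 3 fell, against 10.3% and 18.7% of all genes tested. Slc4a2, the anion exchanger that balances proton export, rose from 34.3 ± 1.14 (SD, n = 3) to 55.1 ± 4.79 CPM (SD, n = 4), with a log2 fold change of 0.68 (standard error 0.12, adjusted p = 0.00799 in edgeR). Atp6v0a1, a subunit a isoform related to Tcirg1, rose by 0.78 (SE 0.17; adjusted p = 0.0118). Ostm1, the partner of the chloride transporter ClC-7, fell by 1.16 (SE 0.24; adjusted p = 0.0109), with 125 and 92.2 CPM in wild-type libraries 2 and 3 and 54.5 CPM in library 1. Without libraries 2 and 3, 0 of the 24 passed in edgeR, while the log2 fold change of Slc4a2 was 0.64, close to that with all libraries (adjusted p = 0.0569). Those of Atp6v0a1 and Ostm1 were smaller than with all libraries, at 0.45 (adjusted p = 0.117) and -0.43 (adjusted p = 0.138). Median log2 fold changes of the 4 lists from ITAM signalling to acid secretion were 0.045, 0.14, 0.47 and 0.17, beside -9.0e-04 for all genes tested. Without wild-type libraries 2 and 3 they were 0.033, 0.138, 0.288 and -0.096, beside 0.027, so that of acid secretion changed sign.

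The profile of the members over the 7 libraries was compared with that of other genes. Among 14400 genes averaging 1 CPM or more, those whose centred log2 CPM lay nearest to the mean of the 9 members were Sgce, Impact, Prxl2c, Plat and Dync1li1, with root mean square differences of 0.0503, 0.0513, 0.0592, 0.0657 and 0.0665. Plat, which encodes tissue plasminogen activator, was at 40.4 to 41.9 CPM in wild type and 29.5 to 35.2 CPM in Tnc-/-. By the same measure, against a mean that holds the members themselves, Dcstamp was the member nearest to their mean, at 0.0704, and Calcr and Tnfrsf11a the farthest, at 0.728 and 0.62.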

How the data were processed

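The deposited files hold raw read counts per gene, 1 library per file. Per the submitters' processing notes, FastQC 0.11.9, HISAT2 2.2.1, HTSeq 2.0.2 and DESeq2 1.38.3 and the build GRCm39 (mm39) were used. The annotation, the feature type counted and the strand setting are not given in the sources used here. Per the labels, libraries were NEBNext Ultra with poly(A) capture. Rows that name no gene held 30.1 to 32.7% of the reads listed in the Tnc-/- files and were left out; the wild-type files list 0 such rows. Of the identifiers, 56854 were in all files, 126 occur with wild type and 87 with Tnc-/- alone. No value column was left unmapped (0).

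All genes were fitted with edgeR 4.0.16 in R 4.3.3 (filterByExpr, TMM, robust quasi-likelihood F test on genotype, Benjamini-Hochberg, threshold 0.05), which was tested on simulated data. The standard error is the fold change over the square root of F. CPM are counts relative to the TMM-scaled library size, and centred profiles are of log2(CPM + 0.5). Alternatives were DESeq2 1.42.0, limma 3.58.1 voom, other scalings and filters, left-out libraries, a replicate block and a chemoreceptor covariate. Exon lengths, spans and overlaps came from GENCODE M21, on an older build (GRCm38) than that of the files, and no coordinates were taken from it. Promoter windows and their coordinates are from the RefSeq table of GRCm38.p6. Floors are 3 counts and cover counting error only.

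The members, gene lists and tests were chosen with earlier results of these data known. The naming rule gives all members, up to 3 called genes with the smallest p per pathway list, RANKL and osteoprotegerin, and the 5 genes nearest in profile; Mmp9 and other names were added after their values were seen.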

Additional observations from a re-analysis of the deposited data

How the results depend on the processing

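In the fit reported, 5159 genes and 4 of the 9 members passed, 64.5% of the genes lower. The counts of genes and members were 1653 and 0 with DESeq2 and Bonferroni adjustment (5 members at an unadjusted p under 0.05), 973 and 0 with limma voom (27.3% of the genes lower), 397 and 1 with the chemoreceptor covariate in edgeR, and 825 and 1 without wild-type libraries 2 and 3. Library totals left 2 members, Tnfrsf11a and Calcr, and 82.7% of the called genes lower. In edgeR, 3 further settings left 3 members each. Nfatc1 was lost with DESeq2 size factors (0.41, adjusted p = 0.0583) and with at least 10 counts in every sample (0.37, adjusted p = 0.0726). Calcr was lost with no filter (-1.9, adjusted p = 0.0708). Leaving out 1 library at a time gave 2229 genes (without wild-type library 3) to 14113 (without wild-type library 1) and 1 to 4 members. The fold change of Atp6v0d2 ran from -0.48 to 0.23, that of Ctsk from -0.26 to 0.09 and that of Tnfsf11 from -0.35 to 0.08 in those fits, positive without wild-type library 1. Osteoprotegerin (Tnfrsf11b) passed in edgeR with library totals (-0.85, adjusted p = 0.0353) and without wild-type library 2 (-0.79, adjusted p = 0.0467), and was at -0.32 (adjusted p = 0.353) without wild-type library 3. The cause of these shifts was not tested.

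Nothing in the labels ties same-numbered libraries to each other. Their deviations from the group means correlated at 0.0075, 0.1168 and -3e-04, against -0.1156 to 0.0941 for differently numbered libraries. With so few libraries these values cannot exclude shared days or litters. A replicate block gave 1932 genes and 0 members (2 members at an unadjusted p under 0.05 in edgeR). Depth limits Calcr most, with 16 to 122 counts per library, followed by Oscar, Dcstamp and Ocstamp with 110 to 217.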
